A study of Homo sapiens with 9 samples.

Results

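The Sonic hedgehog pathway was followed through 9 genes of its core, SHH, PTCH1, SMO, GLI1, GLI2, GLI3, HHIP, BOC and GAS1, chosen by name out of the 31589 genes listed in the 3 deposited tables. All 9 were found under their symbols in each table. The RNA came from human spinal cord organoids (SCOs), 3-dimensional cultures of the developing neural tube grown from the WTC induced pluripotent stem cell line. The SCOs were exposed for 96 hours, as the labels give it, to vehicle (titled FGF in the labels), to valproic acid (VPA), an anti-seizure medicine that inhibits histone deacetylases, or to VPA+Rapamycin, Rapamycin being an inhibitor of the mTOR kinase. The study describes vehicle as the growth factor FGF alone and VPA as given together with FGF. VPA against vehicle is therefore not a comparison of VPA with FGF. There are 3 bulk RNA-seq libraries per condition, 9 in all. The labels call the genotype WT, whereas the study's methods describe 3 edited clones of WTC with a reporter cassette behind SOX10 and a second, randomly integrated reporter, and pools of organoids for each clone. The exposure is stated as a shorter time in the text of the study. The sample descriptions give libraries of the same replicate number a common prefix in all conditions, but neither say what it stands for nor which clone gave which library. Doses are not stated here. No Hedgehog protein or Smoothened agonist is among the medium supplements that the study's methods list.

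SHH is a secreted protein that the notochord and then the floor plate release at the ventral midline of the neural tube. Without ligand, its receptor PTCH1 keeps the membrane protein SMO inactive and GLI proteins are cut into repressors. With ligand, SMO enters the primary cilium and full-length GLI proteins switch on targets, among them PTCH1, HHIP and GLI1, so that a gradient of SHH orders the progenitor domains from floor plate to dorsal neural tube. In the vertebrate cord the best known readouts are therefore GLI1 and PTCH1 on one hand and the ventral factors NKX2-2, OLIG2 and NKX6-1 on the other.

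PTCH1 is the receptor and also a direct target, and GLI proteins recognise a short motif in its control regions. A search of the RefSeq promoter windows (GRCh38.p14, 300 bases per start site) for the consensus GACCACCCA on either strand found it in 1 of the 13 windows of the 7 pathway genes that have an entry, compared with 83 of 35116 windows of all genes (0.236%). That window belongs to 1 of the 5 start sites of PTCH1, at chr9:95509217-95509516 on the minus strand. It is shown because PTCH1 is the target gene measured best in these libraries, and the capitals mark the motif, which lies on the opposite strand to the gene and begins 172 bases before the start site.

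PTCH1: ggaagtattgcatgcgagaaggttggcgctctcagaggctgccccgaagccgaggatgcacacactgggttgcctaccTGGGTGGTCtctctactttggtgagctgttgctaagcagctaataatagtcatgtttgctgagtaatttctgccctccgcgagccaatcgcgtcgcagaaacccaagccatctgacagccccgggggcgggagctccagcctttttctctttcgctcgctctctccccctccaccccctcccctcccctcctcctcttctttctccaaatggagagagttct

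A match of letters is a description of the window, not a measured site of binding.

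The 9 libraries held between 15290299 and 17417338 counted reads. Within a condition the log2 CPM (read counts scaled to the library's total) of 2 libraries correlated across genes at 0.984 to 0.986 for VPA and for VPA+Rapamycin, but at 0.966 to 0.981 for vehicle, where replicate 3 stood apart from replicate 1. Vehicle replicate 3 also had the highest summed level of 6 neuron markers (30509 normalized counts, against 14691 to 22495 in the other 8 libraries) and the lowest of 7 neural progenitor markers (39122 against 43195 to 52347). Dorsal progenitor genes were highest in it, among them PAX7 with 131 reads, against at most 22 elsewhere. No 2 libraries agreed within sampling noise, with a chi-square of 4.52 per gene or more between libraries of the same condition. The spread between libraries may be technical or between clones, which cannot be told apart, and p-values measure that spread only. In bulk RNA, fewer cells of a type and less RNA per cell cannot be told apart.

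All 9 genes were transcribed, but at levels that fell into 2 separate ranges. Compared as FPKM, read counts scaled for gene length and library size, BOC, SMO, PTCH1, GLI3, GAS1 and GLI2 lay between 10.5 and 41.3 in every library, whereas SHH, HHIP and GLI1 lay between 0.0245 and 2.18. In vehicle the order of mean FPKM was BOC (34.1 ± 7.39, SD, n = 3), SMO (28.8 ± 6.21), PTCH1 (23.7 ± 2.46), GLI3 (14.4 to 16.0), GAS1 (14.0 ± 2.76), GLI2 (13.2 ± 2.98), SHH (0.869 ± 1.13), HHIP (0.136 ± 0.0703) and GLI1 (0.0742 ± 0.0176). Of these neighbours, only PTCH1 and GLI3, and GLI2 and SHH, had library ranges that did not overlap. In VPA the largest shift of order was GAS1, which moved from the fifth place to the third with 22.6 ± 0.705 FPKM and overlapped PTCH1 at 21.9 ± 1.17. In VPA+Rapamycin GAS1 was in the fourth place with 15.4 ± 1.72.

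Against vehicle, VPA was followed by a higher level of GAS1 and GLI1 and a lower level of HHIP, while PTCH1, SMO, GLI2, GLI3 and BOC differed by less than 0.29 on the log2 scale and did not pass the test. That is 2 of 9 pathway genes that rose, beside 16.4% of all 17360 genes tested, and 1 that fell, beside 15.7% (32.1% in either direction). The median log2 fold change of the 9 genes was -0.11, and that of all genes -0.0030. Adding Rapamycin to VPA was followed by a higher SHH and a lower GAS1, which is 1 gene up beside 3.01% of 17317 genes tested and 1 down beside 3.73% (6.74% in either direction), with a median of 0.067 beside 0.0039. Between VPA+Rapamycin and vehicle, edgeR's test called 0 of the 8 genes that could be tested, beside 19.0% of 17383 genes (9.81% up and 9.22% down), and 1 of them, BOC, had an unadjusted p under 0.05. DESeq2 called 2 genes there, BOC and GLI1. The shares of pathway genes called were computed from 9 genes and nothing particular to the pathway is read from them. Each 2 of the 3 comparisons share the libraries of 1 condition and are not independent of each other. The VPA libraries are the treated side of the first and the reference of the second. An error in them moves those 2 values in opposite directions.

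**Figure D1:**
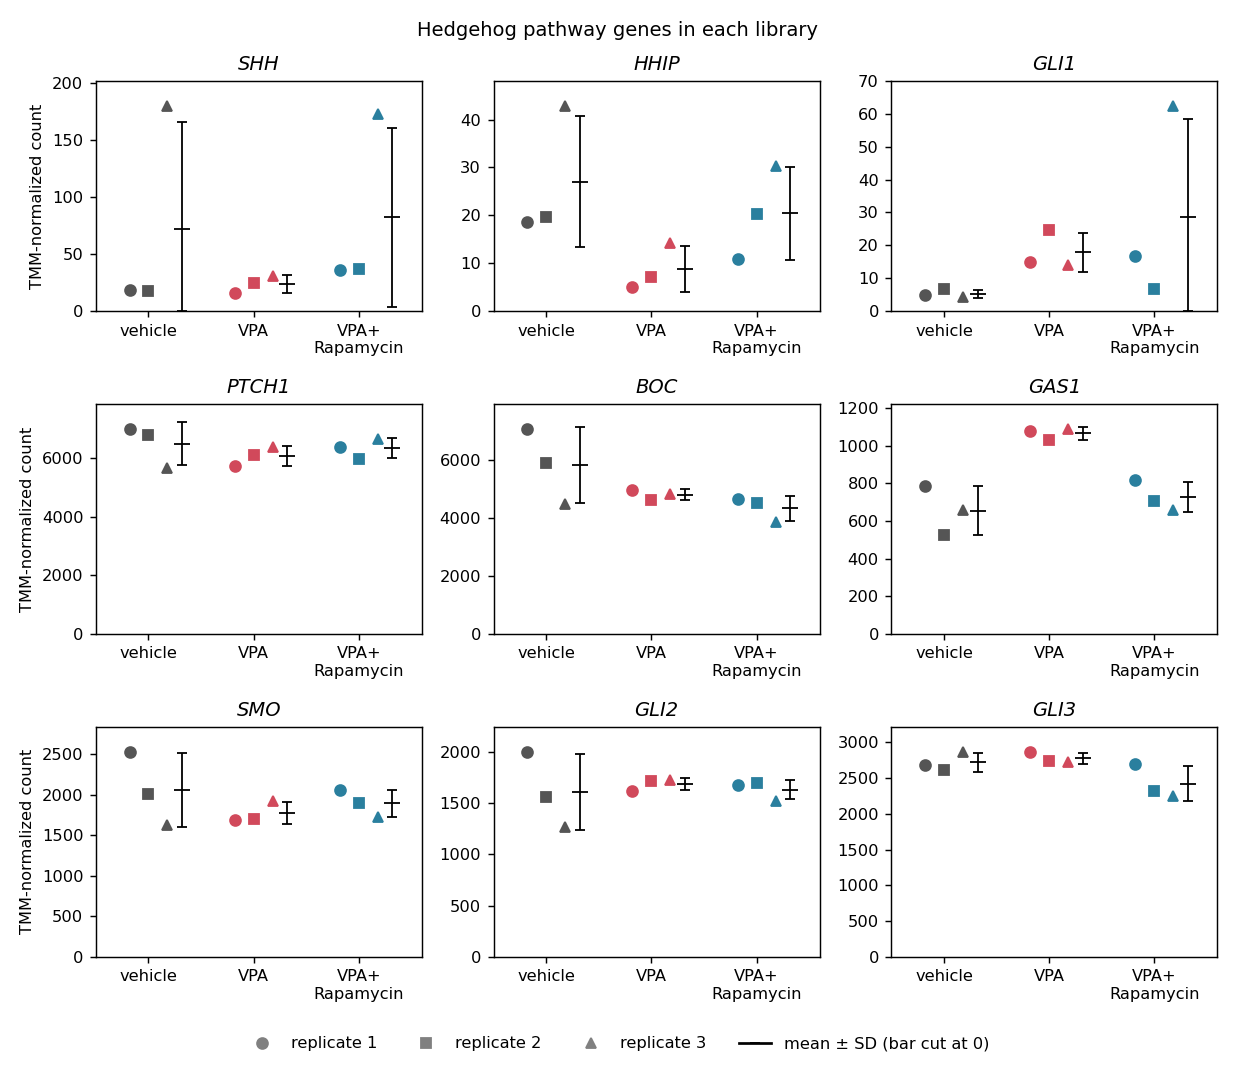
Normalized counts (y axis, linear, each gene on its own scale from 0) of the 9 pathway genes in the 3 libraries of each condition, with marker shape for the replicate number and the mean ± SD beside them. SHH stands at 180 in vehicle replicate 3 and 173 in VPA+Rapamycin replicate 3 and at 36.5 or less elsewhere, whereas the 3 VPA values of GAS1 lie above all others.

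**Figure D2:**
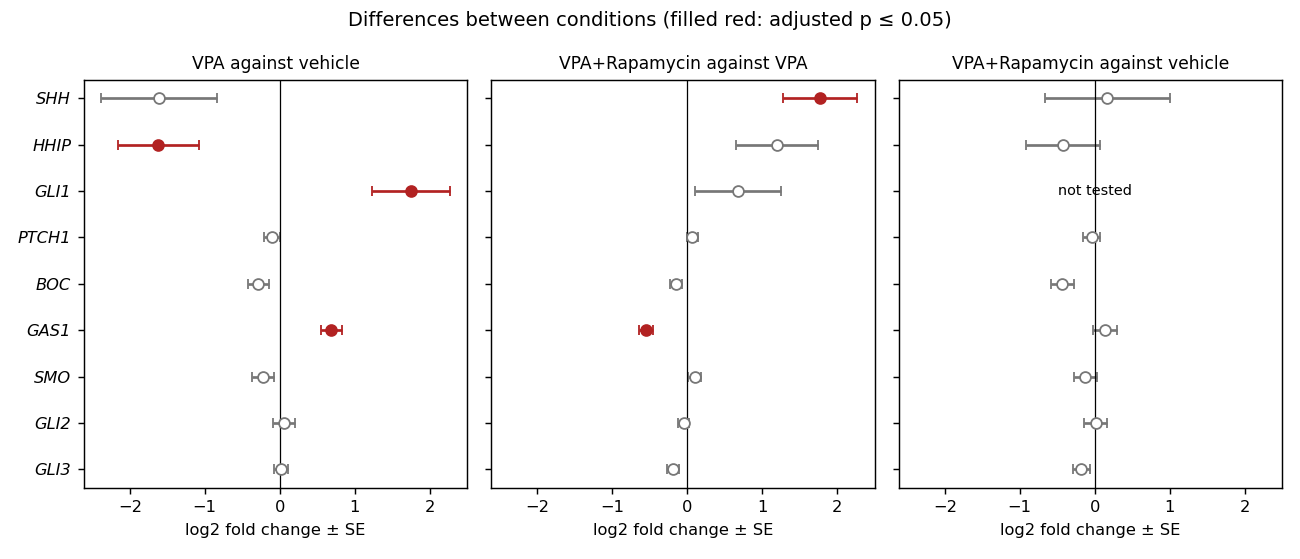
Log2 fold change (x axis, bars: SE) of the 9 genes in the 3 comparisons, filled red where the adjusted p was 0.05 or less. GAS1 has the shortest bars among the genes called, while SHH, HHIP and GLI1 have the widest.

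SHH, the ligand (ENSG00000164690, chromosome 7, 155799986 to 155812273, minus strand), gave 19, 16 and 176 reads in the 3 vehicle libraries. In VPA it gave 16, 24 and 33 reads, and in VPA+Rapamycin 37, 38 and 166. A single library was therefore high in vehicle and a single library in VPA+Rapamycin, and in reads the range of VPA overlapped that of vehicle. After normalization vehicle replicate 3 stood at 180 beside a mean of 18.0 in the other 2 vehicle libraries, and VPA+Rapamycin replicate 3 was 4.74 times the mean of its other 2. The coefficient of variation between libraries was 130% for vehicle, 32.1% for VPA and 96.1% for VPA+Rapamycin. The biological coefficient of variation fitted for SHH by edgeR was 0.615 in the comparison of VPA and vehicle, where the median gene had 0.151 and 63 of 17360 genes (0.363%) had a higher value. In the comparison of VPA+Rapamycin and vehicle it was 0.692, exceeded by 34 genes (0.196%). SHH was thus among the genes with the most unequal replicates in this series.

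The differences of SHH between conditions depended on those libraries. VPA against vehicle gave a log2 fold change of -1.61 ± 0.77 (SE) with an adjusted p of 0.132. Without vehicle replicate 3 it was 0.40 with an adjusted p of 0.570, so the sign turned, and without vehicle replicate 1 it was -2.06 with an adjusted p of 0.0239. VPA+Rapamycin against VPA gave 1.77 ± 0.49, a 3.42-fold higher level with an adjusted p of 0.0372, and all 3 libraries with Rapamycin lay above all 3 with VPA alone. Without VPA+Rapamycin replicate 3 this was 0.615 with an adjusted p of 0.501, and the call was also lost with each VPA library left out (adjusted p of 0.0671 to 0.131), with DESeq2 (0.169) and with all 9 libraries in 1 fit (0.373). VPA+Rapamycin against vehicle gave 0.17 ± 0.83 with an adjusted p of 0.915. This became 2.17 with an adjusted p of 0.0244 without vehicle replicate 3, and -0.99 with 0.501 without VPA+Rapamycin replicate 3. With replicate 3 left out of both conditions, an alternative chosen after the values were seen, the 3 comparisons gave 0.15, 0.86 and 1.01 with adjusted p of 0.865, 0.380 and 0.174. In fits blocked on replicate number the 3 comparisons gave -0.95, 1.52 and 0.52 with adjusted p of 0.181, 0.00202 and 0.237. Fitting without the filter on low counts made the first difference pass as well, at an adjusted p of 0.00119.

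**Figure D3:**
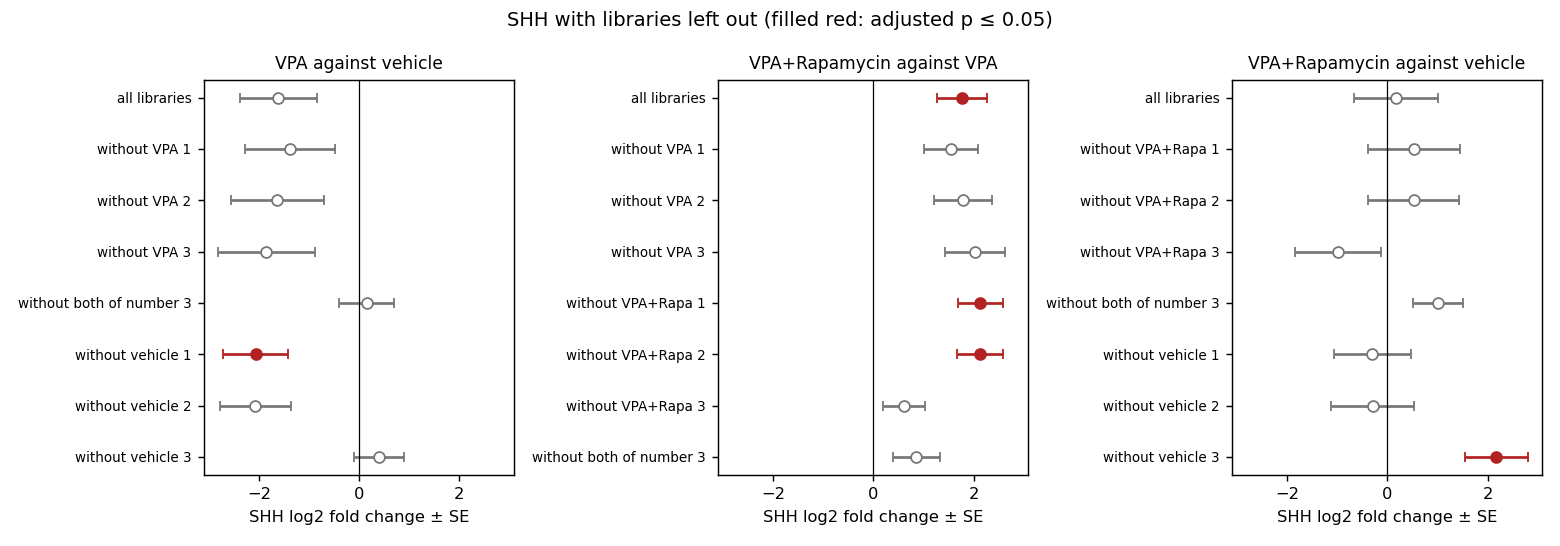
Log2 fold change of SHH (x axis, bars: SE) in the 3 comparisons with all libraries and with the named library or libraries left out, filled red where the adjusted p was 0.05 or less. Leaving out vehicle replicate 3 moved the value from -1.61 to 0.40 for VPA against vehicle and from 0.17 to 2.17 for VPA+Rapamycin against vehicle.

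GLI1, the transcription factor whose own gene is switched on by the pathway (ENSG00000111087, chromosome 12, 57460135 to 57472262, plus strand), was close to the limit of detection in vehicle with 5, 6 and 4 reads. VPA libraries gave 15, 24 and 15 reads and VPA+Rapamycin libraries 17, 7 and 60. All VPA libraries were above all vehicle libraries, and so were those of VPA+Rapamycin, although replicate 2 of VPA+Rapamycin came near to vehicle. In VPA the log2 fold change against vehicle was 1.75 ± 0.52, or 3.36-fold, with an adjusted p of 0.0249. The call was lost when any 1 of the 6 libraries was left out (adjusted p of 0.0552 to 0.134), with DESeq2 (0.0705) and with all 9 libraries in 1 fit (0.0799), while the value stayed between 1.46 and 1.94. Between VPA+Rapamycin and VPA the value was 0.68 ± 0.58 (adjusted p of 0.546), and -0.59 (0.670) without VPA+Rapamycin replicate 3. GLI1 was removed by the filter on low counts in VPA+Rapamycin against vehicle. Without the filter it gave 2.43 ± 0.62 with an adjusted p of 0.00309, and DESeq2 gave 2.46 ± 0.82 with 0.0193. With 1 vehicle library left out it passed the filter at 2.29 to 2.62 but not the test (adjusted p of 0.0673 to 0.107), and without VPA+Rapamycin replicate 2 it passed both (2.90, 0.0275). ARHGAP9 overlaps GLI1 on the other strand and had 24.8% of its mean count over the 9 libraries, with 2 to 10 reads in vehicle, 1 to 5 with VPA and 0 to 4 with VPA+Rapamycin. In vehicle replicates 2 and 3 it had more reads than GLI1, 9 and 10 beside 6 and 4. Since the use of the strand in counting is not given in the sources used here, the GLI1 counts are uncertain, also the vehicle counts from which the rise was computed.

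GLI1 did not follow SHH from library to library. Vehicle replicate 3, with 180 normalized counts of SHH, had 4.09 of GLI1, the lowest of the vehicle libraries. VPA+Rapamycin replicate 3, with 173 of SHH, had 62.5 of GLI1, the highest of all, which was 5.33 times the mean of the other 2 libraries of that condition. VPA replicate 2 had 24.5 normalized counts of each gene.

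PTCH1 (ENSG00000185920, chromosome 9, 95442980 to 95517057, minus strand), the receptor and target, passed no test between conditions. Its normalized counts were 7013, 6809 and 5670 in vehicle, 5735, 6097 and 6391 in VPA, and 6398, 5977 and 6674 in VPA+Rapamycin. The 3 ranges overlapped, and the lowest value of all was in vehicle replicate 3, 1 of the 2 libraries with high SHH. The log2 fold changes were -0.11 ± 0.105 for VPA against vehicle, 0.067 ± 0.073 for VPA+Rapamycin against VPA and -0.042 ± 0.11 for VPA+Rapamycin against vehicle, with adjusted p of 0.466, 0.649 and 0.824. Over all alternatives and the 3 comparisons the value stayed between -0.232 and 0.107. PTCH1 was also steady between libraries, with a coefficient of variation of 5.41% to 11.1% within conditions.

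HHIP, a membrane protein that binds and sequesters the ligand and is itself a target (ENSG00000164161, chromosome 4, 144646021 to 144745271, plus strand), gave 19, 18 and 42 reads in vehicle. It gave 5, 7 and 15 reads with VPA and 11, 21 and 29 with VPA+Rapamycin. Its highest library in each condition was replicate 3, as for SHH, and the VPA values lay below all vehicle values. VPA against vehicle was -1.62 ± 0.54, or 0.325-fold, with an adjusted p of 0.0397. Without vehicle replicate 3 it was -1.11 with an adjusted p of 0.165, the call was also lost without vehicle replicate 2, VPA replicate 1 or VPA replicate 2 (0.0572 to 0.145), and DESeq2 gave 0.0516. VPA+Rapamycin against VPA was 1.20 ± 0.55 (adjusted p of 0.204) and against vehicle -0.42 ± 0.49 (0.592). The antisense gene HHIP-AS1 overlaps HHIP, had 88.0% of its mean count and differed by -0.16 ± 0.53 between VPA and vehicle (adjusted p of 0.850). Without knowledge of the strand, reads of the 2 genes where they overlap cannot be assigned, and the HHIP values are uncertain.

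Among the co-receptors, which present SHH to PTCH1, GAS1 carried the clearest difference of the 9 genes. GAS1 is a membrane-anchored protein (ENSG00000180447, chromosome 9, 86944363 to 86947189, minus strand) that in the mouse neural tube acts together with BOC and CDON. Its normalized counts were 786, 524 and 658 in vehicle, 1078, 1029 and 1092 in VPA, and 817, 707 and 660 in VPA+Rapamycin. The 3 VPA libraries were above all 6 others, and the vehicle and VPA+Rapamycin libraries overlapped. VPA against vehicle gave 0.69 ± 0.14, or 1.61-fold, with an adjusted p of 0.00444, and passed in all 14 alternatives (adjusted p of at most 0.0250). VPA+Rapamycin against VPA gave -0.55 ± 0.091, or 0.684-fold, with an adjusted p of 0.00135, and passed in 13 of 14, the exception being all 9 libraries in 1 fit (0.0877). VPA+Rapamycin against vehicle gave 0.14 ± 0.16 with an adjusted p of 0.574. The summed level of 10 mesenchyme markers was highest in the same condition, at 2769 to 5446 normalized counts in vehicle, 10205 to 12711 with VPA and 4893 to 6866 with VPA+Rapamycin. COL1A1 and COL1A2 make up most of that sum, and other markers had another order. PRRX1 gave 0, 0 and 53 reads in vehicle and at most 20 with VPA, and DCN gave 0, 0 and 97 in vehicle and at most 22 with VPA. TWIST1, COL3A1 and LUM were likewise higher in vehicle replicate 3 than in each VPA library. Of the 9 markers tested, COL1A1, COL1A2 and THY1 rose with VPA, beside 16.4% of all genes. When Rapamycin was added 5 of 9 fell, beside 3.73% of all genes. The part of mesenchyme in the GAS1 result was not tested.

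BOC, the immunoglobulin family co-receptor (ENSG00000144857, chromosome 3, 113211003 to 113287459, plus strand), had the highest mean FPKM of the 9 genes in vehicle and in VPA. Its normalized counts were 7100, 5919 and 4492 in vehicle, 4985, 4620 and 4852 in VPA, and 4648, 4526 and 3853 in VPA+Rapamycin. Vehicle replicate 3 lay within or below the other conditions, whereas vehicle replicates 1 and 2 lay above them. VPA against vehicle was -0.29 ± 0.14 (adjusted p of 0.144) and VPA+Rapamycin against vehicle -0.435 ± 0.15 (0.0706). Without vehicle replicate 3 these were -0.44 (0.00145) and -0.59 (0.00227). The second also passed with DESeq2 (0.0299), without the filter (0.0135), with all 9 libraries in 1 fit (0.0279) and in the fit blocked on replicate number (0.0184).

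SMO, the transducer that PTCH1 holds inactive (ENSG00000128602, chromosome 7, 129188872 to 129213545, plus strand), had 2533, 2009 and 1621 normalized counts in vehicle. VPA libraries had 1687, 1696 and 1926 and VPA+Rapamycin libraries 2059, 1897 and 1723, all within the vehicle range. VPA against vehicle was -0.23 ± 0.15 (adjusted p of 0.266), and -0.36 (0.0147) without vehicle replicate 3. The other 2 comparisons gave 0.10 ± 0.083 (0.531) and -0.13 ± 0.15 (0.601).

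GLI2 and GLI3 carry most of the activator and repressor function, respectively, before GLI1 is induced. GLI2 (ENSG00000074047, chromosome 2, 120735623 to 120992653, plus strand) had 1261 to 2002 normalized counts in vehicle, 1620 to 1724 with VPA and 1523 to 1694 with VPA+Rapamycin. Its log2 fold changes were 0.060 ± 0.147 for VPA against vehicle, -0.046 ± 0.075 for VPA+Rapamycin against VPA and 0.012 ± 0.152 for VPA+Rapamycin against vehicle, with adjusted p of 0.784, 0.776 and 0.966. GLI3 (ENSG00000106571, chromosome 7, 41960950 to 42237870, minus strand) had 2615 to 2873 in vehicle, 2724 to 2866 with VPA and 2249 to 2703 with VPA+Rapamycin. The VPA+Rapamycin libraries of GLI3 were all below those of VPA, at -0.19 ± 0.079 with an adjusted p of 0.155. The difference was -0.28 with an adjusted p of 0.0404 without VPA+Rapamycin replicate 1.

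Vehicle replicate 3 was the lowest vehicle library for PTCH1, SMO, GLI1, GLI2 and BOC and the highest for SHH, GLI3 and HHIP. The part of that library's other differences in these values was not tested.

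Floor plate and ventral genes were examined beside SHH, since the floor plate makes SHH and the ventral domains respond to it. FOXA2, the floor plate factor, gave 0, 7 and 52 reads in vehicle, 0, 16 and 0 with VPA and 0, 5 and 85 with VPA+Rapamycin. CORIN, a floor plate protease, gave 5, 2 and 40, then 10, 3 and 3, then 11, 18 and 50. Its highest libraries were again the 2 with high SHH, and FOXA1 followed the same order with 20 reads in vehicle replicate 3, 28 in VPA+Rapamycin replicate 3 and 7 or fewer elsewhere. These libraries differed from each other in NKX2-2, the factor of the most ventral neural progenitors. It had 29 reads in VPA+Rapamycin replicate 3 and 0 in all vehicle libraries. NKX2-8 was at 24 reads in vehicle replicate 3, at 49 in VPA+Rapamycin replicate 3 and at 0 in the other 7. A count of 0 allows up to 3 reads, or 0.172 to 0.196 CPM in these libraries. For counting error only, a gene at 0 here may still be transcribed below that level. TBXT of the notochord, which is the first source of SHH in the embryo, had at most 17 reads, and NOTO was not among the genes listed. Endoderm, another tissue that can make SHH, had a summed level of 6 markers of at most 27.6 normalized counts. SOX17, GATA4, GATA6 and HNF4A were at 0 in vehicle, and AFP was not among the genes listed.

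**Figure D4:**
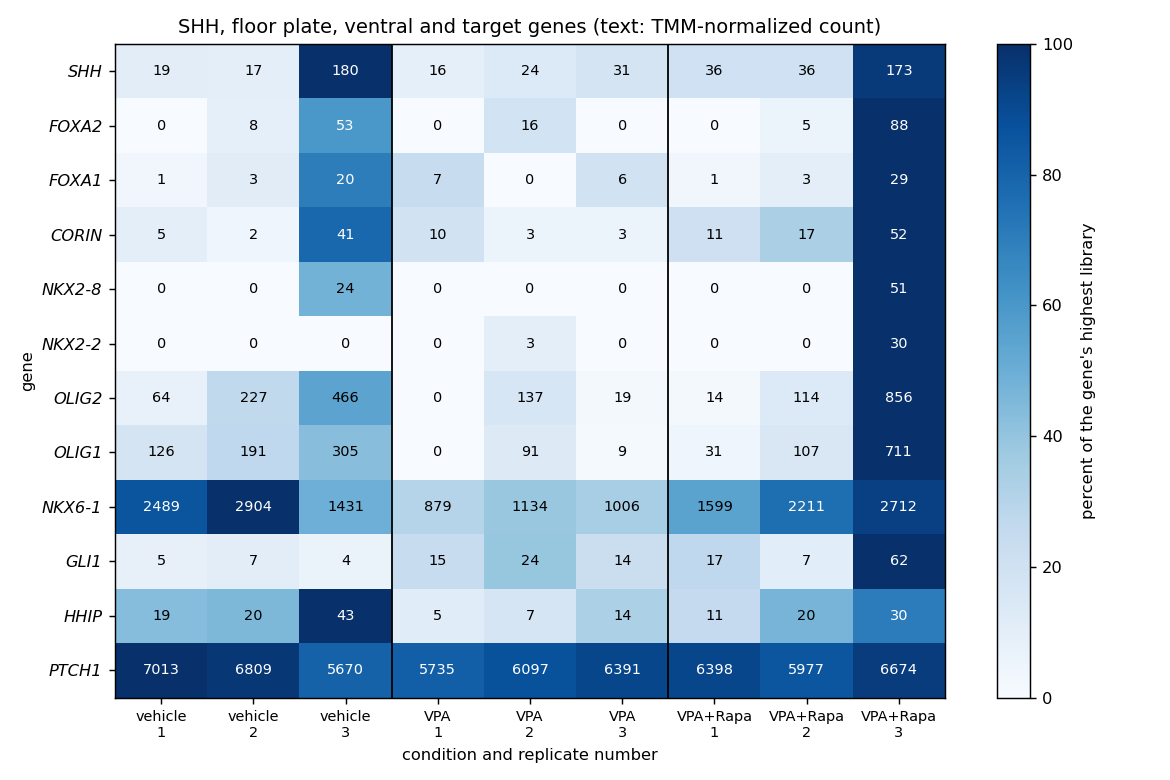
Normalized counts (numbers) of SHH, floor plate, ventral progenitor and target genes in each of the 9 libraries (columns), shaded by the percent of each gene's highest library. SHH, FOXA2, FOXA1, CORIN and NKX2-8 are darkest in vehicle replicate 3 and VPA+Rapamycin replicate 3, whereas GLI1 and NKX2-2 are darkest in the latter alone and PTCH1 is nearly even.

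Of the 10 floor plate genes, 5 could be tested between VPA and vehicle, and 1 rose, beside 16.4% of all genes. It was SULF1, a sulfatase of heparan sulfate that is not confined to the floor plate (1.33 ± 0.11, adjusted p of 2.54e-05). With Rapamycin added to VPA, NTN1 (0.36 ± 0.086, 0.0161) and CORIN (2.32 ± 0.65, 0.0398) rose and LMX1B (-1.15 ± 0.24, 0.00677) and SULF1 (-0.32 ± 0.087, 0.0325) fell, of 6 tested. Over all genes 3.01% rose and 3.73% fell there. The rises of NTN1 and CORIN were lost without VPA+Rapamycin replicate 3, where 0 genes rose and 2 fell, and each was lost in some other alternatives (9 of 14 kept NTN1 and 7 of 13 CORIN). Of the falls, SULF1 was kept in 9 of 14 and LMX1B in 12 of 14. LMX1B did not follow FOXA2, with 137 reads in vehicle replicate 3, 42 in VPA+Rapamycin replicate 3 and 85 to 120 with VPA. Whether its reads came from floor plate cells was not tested. SPON1 and SLIT1, which guide axons at the midline, passed no test, and FERD3L was not among the genes listed.

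Of the 6 ventral progenitor factors 4 were abundant enough for the test, and 3 of them fell with VPA and rose when Rapamycin was added. Over all genes 15.7% fell with VPA and 3.01% rose when Rapamycin was added, and the list holds only 4 tested genes. NKX6-1, a factor of the ventral progenitors and motor neurons, had 2489, 2904 and 1431 normalized counts in vehicle, 879, 1134 and 1006 with VPA and 1599, 2211 and 2712 with VPA+Rapamycin. The VPA libraries were below all others. Its log2 fold change was -1.19 ± 0.21 with VPA (adjusted p of 0.00185) and 1.11 ± 0.14 when Rapamycin was added (8.30e-05), and both passed in all 14 alternatives. NKX6-2 fell by 1.36 ± 0.47 (0.0436) and rose by 1.63 ± 0.44 (0.0308), and OLIG1 fell by 2.66 ± 0.83 (0.0296) and rose by 3.10 ± 0.87 (0.0392). The fall and the rise of NKX6-2 were called in 9 and 8 of 14 alternatives, and those of OLIG1 each in 7 of 13. OLIG2, the motor neuron progenitor factor, gave 65, 209 and 456 reads in vehicle, 0, 134 and 20 with VPA and 14, 119 and 822 with VPA+Rapamycin, with -2.31 ± 0.94 (0.0805) and 2.68 ± 0.93 (0.0920). The median log2 fold change of the 4 was -1.84 with VPA and 2.15 with Rapamycin added, beside -0.0030 and 0.0039 for all genes. Only NKX6-1 rose without VPA+Rapamycin replicate 3, and without VPA replicate 3 a single gene of the 4 was called in each comparison. Blocked on replicate number, all 4 were called in both comparisons. DESeq2 called 2 of these genes in the first comparison and 1 in the second. Against vehicle, edgeR and DESeq2 called 0 of the 4 in VPA+Rapamycin, and 0 had an unadjusted p under 0.05. Over all genes edgeR called 19.0% there.

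Progenitor factors that SHH restricts to intermediate and dorsal domains were called in both directions. With VPA 3 rose and 1 fell of 9 tested, beside 16.4% and 15.7% of all genes. IRX3 (0.82 ± 0.14, adjusted p of 0.00146), DBX1 (0.57 ± 0.14, 0.00887) and DBX2 (1.20 ± 0.15, 2.02e-04), all factors of intermediate progenitors, rose with VPA. OLIG3, a dorsal factor, fell by 3.50 ± 0.69 (0.00320), from 35, 52 and 228 reads in vehicle to 7, 13 and 9 in VPA. It gave 18, 17 and 5 reads in VPA+Rapamycin. In VPA+Rapamycin against vehicle 0 rose and OLIG3 alone fell, of 9 tested, beside 9.81% and 9.22% of all genes. That fall was called in 10 of 13 alternatives. With Rapamycin added to VPA, IRX3 (-0.48 ± 0.087, 0.00263) and DBX2 (-0.58 ± 0.16, 0.0312) fell, of 8 tested (4 fell in the fit blocked on replicate number). Over all genes 3.73% fell in the main fit. DBX2 was called in 8 of 14 alternatives, and was lost without VPA+Rapamycin replicate 3 and without any 1 of the VPA libraries. PAX6, which spans most of the progenitor zone, differed by -0.026 ± 0.090 and -0.085 ± 0.070. PAX7, PAX3 and MSX2 had 131, 295 and 225 reads in vehicle replicate 3 and at most 22, 85 and 33 in the other libraries, and passed no test.

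Proteins that make and release the ligand were led by the SCUBE genes, whose secreted products carry lipid-modified Hedgehog off the cell. SCUBE2 had 471, 340 and 401 normalized counts in vehicle, 1082, 1266 and 1133 with VPA and 737, 638 and 523 with VPA+Rapamycin. These are 3 ranges that did not overlap, with 1.51 ± 0.14 for VPA against vehicle (adjusted p of 4.07e-05), -0.87 ± 0.11 for VPA+Rapamycin against VPA (9.86e-05) and 0.64 ± 0.17 against vehicle (0.0224). SCUBE1 rose by 0.71 ± 0.13 with VPA (0.00243) and stayed 0.71 ± 0.14 above vehicle with Rapamycin (0.00771), and SCUBE3 fell by 0.62 ± 0.11 with VPA (0.00219). HHAT, the acyltransferase that finishes the ligand, and DISP1, its exporter, passed no test. DHH, the ligand of Schwann cells and gonads, gave 24, 10 and 28 reads in vehicle, 48, 36 and 33 with VPA and 22, 25 and 31 with VPA+Rapamycin, with 0.85 ± 0.41 for VPA (adjusted p of 0.140). IHH, the ligand of cartilage and gut, had 2 reads in vehicle replicate 2 and 0 in the others where it was listed. In this list 2 rose and 1 fell of 8 tested with VPA, beside 16.4% and 15.7% of all genes. With Rapamycin added 1 fell, beside 3.73% of all genes.

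Among 8 further receptors and co-receptors, 3 glypicans, heparan sulfate proteoglycans of the cell surface, were called in at least 1 comparison. Over all genes 32.1% were called with VPA, 6.74% when Rapamycin was added and 19.0% in VPA+Rapamycin against vehicle. GPC3, which competes with PTCH1 for the ligand, rose by 0.57 ± 0.12 with VPA (adjusted p of 0.00539) and was 0.77 ± 0.13 above vehicle in VPA+Rapamycin (0.00281). GPC4 rose by 0.49 ± 0.075 when Rapamycin was added (6.58e-04). GPC6 fell by 0.44 ± 0.15 with VPA (0.0410), called in 6 of 14 alternatives and lost when any library but vehicle replicate 1 was left out. CDON, which acts beside BOC and GAS1 and passed no test, had 242, 219 and 786 normalized counts in vehicle and 240 to 387 in the other conditions, so vehicle replicate 3 was high for this co-receptor too.

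Of 22 cytoplasmic and ciliary regulators of GLI, 3 rose and 5 fell with VPA, near the shares of all genes (16.4% and 15.7%). Those that rose were SUFU, which holds GLI proteins in the cytoplasm (0.41 ± 0.12, adjusted p of 0.0263), PRKACA, a catalytic subunit of the protein kinase A that marks GLI proteins for cutting (0.58 ± 0.11, 0.00321), and IQCE, which anchors the EVC complex at the cilium (0.55 ± 0.11, 0.00413). GSK3B (-0.44 ± 0.11, 0.0100), which phosphorylates GLI after protein kinase A, fell. GNAS (-0.37 ± 0.087, 0.00880), GRK2 (-0.59 ± 0.13, 0.00522), DYRK2 (-0.47 ± 0.11, 0.00628) and STK36 (-0.44 ± 0.12, 0.0137) fell as well. GNAS encodes a G protein subunit that raises cyclic AMP, and GRK2 is a kinase that phosphorylates SMO. PRKACA, IQCE, GRK2 and DYRK2 were called in all 14 alternatives, GNAS in 13, and GSK3B and STK36 each in 11. SUFU was called in 9 and was lost when any 1 VPA library was left out. With Rapamycin added to VPA, edgeR called 0 of the 22, beside 6.74% of all genes, DESeq2 called 0, and 2 had an unadjusted p under 0.05. In VPA+Rapamycin against vehicle 3 rose and 4 fell, beside 9.81% and 9.22% of all genes. With any 1 of the VPA+Rapamycin libraries left out, however, at most 1 of the 22 was called.

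Of 21 genes of primary cilium transport and structure, 4 rose and 4 fell with VPA, again near the shares of all genes, with a median of -0.067. DYNC2H1, the heavy chain of the retrograde motor (0.50 ± 0.12, adjusted p of 0.00935), IFT88, of the anterograde train (0.44 ± 0.13, 0.0221), KIF3B and RPGRIP1L rose. OFD1 (-0.58 ± 0.13, 0.00760), a centriole protein, INPP5E, WDR19 and IFT27 fell. With Rapamycin added, IFT27 (0.42 ± 0.085, 0.00523) and WDR19 (0.37 ± 0.077, 0.00662) rose, and 0 of the 21 fell, beside 3.01% and 3.73% of all genes. Against vehicle in VPA+Rapamycin 4 rose and 0 fell, beside 9.81% and 9.22% of all genes, and 0 were called without replicate 1 or 3 of VPA+Rapamycin. With VPA the calls depended on single libraries: without VPA replicate 2 OFD1 alone was called, and without VPA replicate 3 the calls were 1 up and 3 down. Without VPA replicate 1 they were 2 up and 3 down and without vehicle replicate 2 they were 2 and 2, whereas without vehicle replicate 1 or 3 they were 5 up and 7 down and 6 up and 5 down.

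Targets of Hedgehog outside patterning included cell cycle genes that many signals control. CCND1, the cyclin of early G1, had 9688, 10193 and 8022 normalized counts in vehicle, 4034, 4432 and 4531 with VPA and 5653, 5500 and 4484 with VPA+Rapamycin. Vehicle did not overlap with the other conditions, and the log2 fold change was -1.11 ± 0.11 with VPA (adjusted p of 6.30e-05) and -0.84 ± 0.13 with VPA+Rapamycin (0.00182). CCND2 fell by 0.91 ± 0.12 with VPA (2.74e-04), BCL2 fell by 0.52 ± 0.13 (0.00986) and SFRP1, a secreted inhibitor of WNT, rose by 0.30 ± 0.084 (0.0199). FOXL1, a target in mesenchyme, rose by 1.58 ± 0.53 (0.0412), from 3, 7 and 8 reads to 25, 15 and 18, and was called in 4 of 13 alternatives. The rise of SFRP1 was called in 10 of 14 and was lost when any 1 VPA library was left out. MYCN was 0.42 ± 0.13 above vehicle in VPA+Rapamycin (0.0476). It was called in 7 of 14 alternatives and lost when any 1 VPA+Rapamycin library was left out. With Rapamycin added to VPA, edgeR called 0 of 8, beside 6.74% of all genes, DESeq2 called 1, and 1 had an unadjusted p under 0.05.

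Over all 8 lists, 16 of the 84 further pathway genes tested rose and 18 fell with VPA, 8 of 85 rose and 5 fell when Rapamycin was added, and 13 of 84 rose and 10 fell in VPA+Rapamycin against vehicle. Over all genes 16.4% rose and 15.7% fell with VPA, 3.01% and 3.73% when Rapamycin was added, and 9.81% and 9.22% in VPA+Rapamycin against vehicle. Nothing particular to the pathway is read from these counts. Of the 34 calls with VPA, 16 held in every alternative, and 18 were lost when some single library was left out. Of the 13 calls with Rapamycin added, 3 held in every alternative, those of SCUBE2, GPC4 and NKX6-1. In VPA+Rapamycin against vehicle 5 of 23 did so, SCUBE1, GPC3, SULF1, CCND1 and CCND2.

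**Figure D5:**
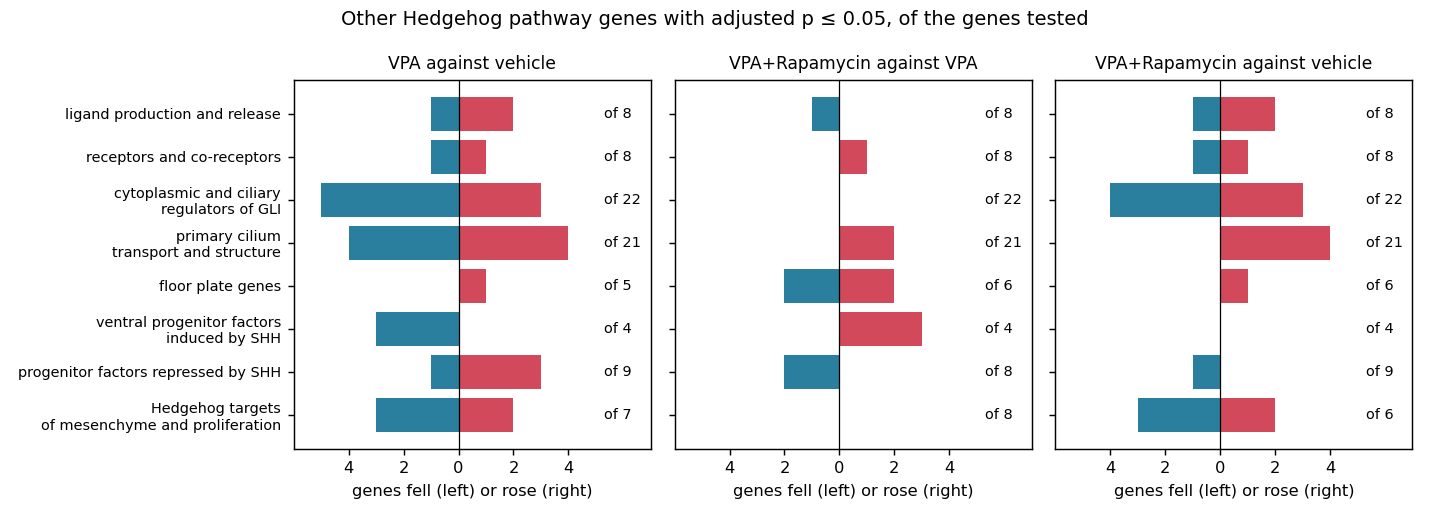
Number of genes of each of the 8 further pathway lists that fell (left of 0) or rose (right of 0) with an adjusted p of 0.05 or less in the 3 comparisons, with the number tested at the right. The ventral progenitor factors are the list with 3 of 4 genes down with VPA and 3 of 4 up with Rapamycin added, and most other lists show calls on both sides or few calls. Over all genes 15.7% fell with VPA and 3.01% rose with Rapamycin added.

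The genes whose pattern over the 9 libraries was most like that of SHH, by Pearson's r of log2 CPM among 13395 genes with a mean of at least 50 reads, were DNAJC6 (0.913), CREBL2 (0.904), LZTS1 (0.903), USP38 (0.903) and MINDY3 (0.896). DNAJC6 and CREBL2 varied by 1.44 and 1.36 times between their lowest and highest library, far less than SHH. The nearest to GLI1 were DIO3 (0.957), HIVEP2 (0.951), STARD13 (0.940), MNX1 (0.935) and RABIF (0.916), all highest in VPA+Rapamycin replicate 3. Among the nearest to PTCH1 were KMT2D (0.915), CREB3L4 (0.911), SLC26A10 (0.907) and EP400 (0.897). None of the 5 nearest genes was shared between SHH, GLI1 and PTCH1. These are descriptions over 9 libraries of 3 conditions, which share the condition and the library as sources of likeness.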

How the data were processed

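Poly-A RNA of 9 libraries was sequenced, and the authors deposited 1 table for each of the 3 pairs of conditions. The authors' count columns hold whole reads per gene, not normalized, made per the labels with HISAT2 2.0.5 and featureCounts 1.5.0-p3, and genes with fewer than 2 reads in a table are left out. The deposited FPKM values were computed by the authors per gene length and library and served only to compare levels between genes. The build is GRCh38, since 31546 of 31589 genes (99.9%) have the positions of GENCODE 29. The use of the strand is not given in the sources used here. A further 18 columns of size-factor normalized counts and the authors' own fold changes and p-values were not used.

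Each pair of conditions was compared in its own table in R 4.3.3 with edgeR 4.0.16 (TMM, filterByExpr, quasi-likelihood F test, Benjamini-Hochberg adjusted p at most 0.05). Normalized counts are reads divided by TMM-adjusted library sizes, set across the 9 libraries. Alternatives were DESeq2 1.42.0 (which the study used in another version), upper-quartile normalization, other filters, 1 fit of all libraries, a replicate block, protein-coding genes only, a minimum log2 fold change of 1 and libraries left out. In a test on simulated data, 64 of 100 genes changed by 1 and 86 of 100 changed by 2 (log2) were recovered among 17360 for VPA against vehicle, and 0 with the wrong sign. In that test 7 unchanged genes were called. A far smaller share of genes was changed there than the 32.1% called in the data, so the recovery in the data may differ. All 9 genes are described. From the 8 pathway lists, genes called in any comparison were eligible, up to 6 for each list and comparison by p, and floor plate, ventral and dorsal factors at any level. The genes and lists were chosen with earlier results of these data known, and examples with no call that fall outside this rule were chosen after their values were seen. Some genes that the rule would name are not reported here.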

Additional observations from a re-analysis of the deposited data

How the results depend on the processing

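Of the log2 fold changes of the 9 genes, 301 values under an alternative kept direction and side of the threshold, 23 lost the call, 14 gained one and 22 turned sign. The number of the 9 genes called with VPA against vehicle was 3, and 1 with DESeq2 or with at least 10 counts in every library. With Rapamycin added to VPA it was 2, but 1 with DESeq2 or a log2 fold change of at least 1 and 0 with all 9 libraries in 1 fit. Between VPA+Rapamycin and vehicle it was 0, and 2 with DESeq2, without the filter or with all 9 libraries in 1 fit. With libraries left out these counts ran from 1 to 3, 1 to 3 and 0 to 2. The further pathway genes called numbered 34, 13 and 23 in the 3 comparisons. They were 9, 5 and 2 at a log2 fold change of at least 1, and in the second comparison 20 without the filter and 3 with all 9 libraries in 1 fit. With libraries left out they ran from 20 to 46, 7 to 16 and 6 to 28. Among protein-coding genes only, GLI3 turned to -0.014 for VPA against vehicle and GLI2 to -0.0035 for VPA+Rapamycin against vehicle. With libraries left out, the values that turned sign ran from -2.07 to 0.395 (SHH), -0.102 to 0.250 (GLI2) and -0.0121 to 0.0757 (GLI3) for VPA against vehicle. They ran from -0.737 to 1.15 (GLI1) and -0.0766 to 0.0165 (GLI2) for VPA+Rapamycin against VPA. For VPA+Rapamycin against vehicle they ran from -0.988 to 2.17 (SHH), -0.165 to 0.0131 (PTCH1), -0.269 to 0.0488 (SMO), -0.133 to 0.199 (GLI2) and -0.802 to 0.0870 (HHIP). The cause of these changes was not tested, apart from the libraries left out themselves.

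The replicate numbers were checked for pairing. Same-numbered libraries correlated in their deviations from the condition means at -0.0704 to 0.055, -0.0278 to 0.0925 and 0.0652 to 0.184 in the 3 comparisons. Their descriptions share a prefix whose meaning is not given, and the study made organoids from 3 clones, so whether a number marks a clone was not settled by these values. In fits with a replicate block, the 9 genes gave 3, 2 and 1 calls, the last being BOC. Where libraries were left out, the spread was pooled over the remaining ones. SHH, GLI1 and HHIP had 60 reads or fewer in 7, 9 and 9 of the 9 libraries, which limits the precision of their values.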
